A study of Mus musculus with 8 samples.

Results

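The genes described here are 5 ligands of the bone morphogenetic protein (BMP) family, Bmp10, Bmp2, Bmp4, Bmp5 and Bmp7, and 3 of their receptors, Bmpr1a, Bmpr2 and Acvr1. They were taken by name, with earlier results of these data known, and all 8 were found by Ensembl identifier among the 13869 genes of the expression table. RNA was sequenced from the ventricles of mouse hearts at E14.5 (embryonic day). The groups compared were 4 mutant libraries of genotype Mib1flox; TnT-Cre, and 4 libraries of their WT (wild-type) siblings, with ventricles of 16 hearts per genotype pooled into the 4 replicates. Mib1 encodes a ubiquitin ligase that acts on Notch ligands in the cell that sends the signal, and the troponin T promoter drives Cre in cardiomyocytes, so that other cells of the ventricle keep the gene. The labels do not say whether the floxed allele was homozygous or whether the WT embryos carried Cre, and nothing in them ties a pool to a litter, so p-values reflect the variation among pools, which may be technical.

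BMP ligands are secreted dimers that bring type I receptors, such as those encoded by Bmpr1a and Acvr1, together with a type II receptor, such as that of Bmpr2. The type I receptor then phosphorylates Smad1, Smad5 and Smad9, which enter the nucleus with Smad4. In the midgestation heart Bmp10 is known as a product of the trabecular myocardium, the inner sponge-like layer of the ventricle wall, and of the atria, and mouse embryos without it have thin, poorly trabeculated ventricles. BMP10 also binds the endothelial type I receptor ALK1, encoded by Acvrl1, with endoglin, encoded by Eng, as co-receptor.

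The targeted gene matched the labels. Mib1 (ENSMUSG00000024294) lay between 95.3 and 106 CPM (counts per 1000000, after the library totals were normalized) in the mutant libraries and between 150 and 167 CPM in wild type. The counts recovered per library summed to between 6307634 and 11506082, and 3 counts corresponded to 0.265 to 0.472 CPM, counting error only. All 8 ventricular cardiomyocyte markers looked up were present, with a median log2 difference of −0.05. Of these, 6 lay below 0, and 1, Hey2, was called higher, where 0.99% of all genes tested were. Myl2 stood at 4254 to 4547 CPM in the mutants and 4859 to 4998 CPM in wild type, and Tnnt2 at 3386 to 3605 and 3870 to 4196 CPM, both lower in every mutant library but not called (limma adjusted p = 0.135 and 0.0658). Their summed level overlapped between the groups, at 34367 to 36701 and 36174 to 39869 CPM.

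Of the 5 ligand genes 3 fell in the mutant ventricles, and none of the 3 receptor genes was called. Bmp10, Bmp5 and Bmp7 fell, by 2.29, 0.79 and 0.21 on the log2 scale, and Bmp2 stood at −0.46 and Bmp4 at 0.09 without passing the test. The receptors stood at 0.12 (Bmpr1a), 0.29 (Bmpr2) and 0.06 (Acvr1), and none passed. By limma's moderated test with Benjamini-Hochberg adjustment over all 13740 genes tested, 3 of the 8 genes were called lower at an adjusted p under 0.05, where 1.25% of all genes were, and 0 were called higher, where 0.99% were. At an unadjusted p under 0.05 the test gave 4 of the 8 lower and 1 higher, where 14.8% of all genes passed in either direction, and voom precision weights also gave 0 called higher. The median of the 8 log2 differences was −0.08, and that of all genes tested was 0. The 8 genes were chosen with earlier results of these data known, so these counts are descriptions and not an independent test. Because whole ventricles were used, fewer cells of a type and less RNA per cell cannot be told apart.

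**Figure D1:**
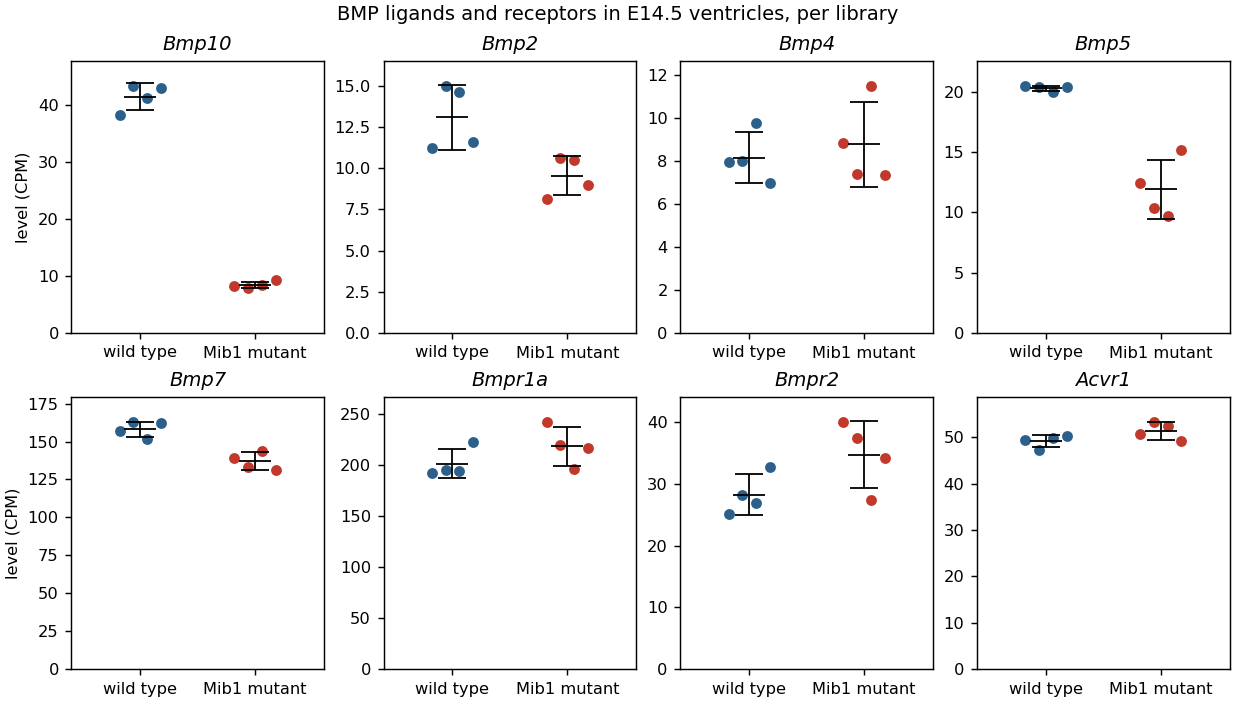
Level in CPM (vertical axes, from 0) of the 8 genes in the 4 wild-type (blue) and 4 Mib1 mutant (red) libraries, with the mean and SD in black. All 4 mutant libraries lie below all 4 wild-type libraries for Bmp10, Bmp2, Bmp5 and Bmp7, and the groups overlap for the other 4 genes.

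The mutant and wild-type libraries did not overlap for 4 of the 8 genes, all lower in the mutant and all ligands. Over all genes tested, 4.63% were lower in every mutant library than in every wild-type library and 4.26% higher. The plot of levels by library shows these 4 genes, and the plot of log2 differences gives each gene's interval.

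**Figure D2:**
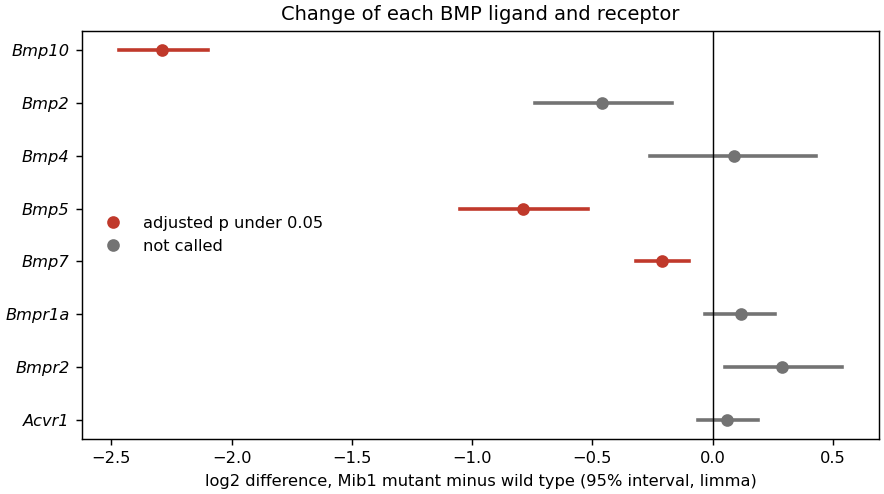
Log2 difference, mutant minus wild type (horizontal axis), for each gene, with its 95% interval from limma, not adjusted for the number of genes; red marks an adjusted p under 0.05. Bmp10 lies at −2.29, apart from the other 7 genes, which lie between −0.79 and 0.29.

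Bmp10 (ENSMUSG00000030046) stood at 8.29, 7.89, 8.38 and 9.22 CPM in mutant replicates 1 to 4. The wild-type libraries gave 38.2, 43.3, 41.1 and 42.9 CPM. The highest mutant library was thus below the lowest wild-type library by a wide gap, and the mutant mean was 20.4% of the wild-type mean. Within each group the libraries differed by no more than counting error: the SD was 0.559 CPM against 1.01 CPM expected from counting in the mutants, and 2.33 against 2.34 CPM in wild type. The values rest on 56 to 94 counts per mutant library and 261 to 390 per wild-type library. The log2 difference was −2.29 ± 0.09 (SE; 95% interval −2.47 to −2.1; limma adjusted p = 4.94e-09). A two-sided exact permutation of the 8 libraries gave p = 0.0286, which is the minimum for groups of 4. Only 7 of the 13740 genes tested had a lower log2 difference.

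The stretches upstream of Bmp10 and Bmp5, the ligand genes with the largest falls, are shown because RBPJ, the DNA-binding factor of the Notch pathway, has the core motif TGGGAA. The windows are the 250 bases before the RefSeq start (GRCm38.p6), both on the plus strand, chr6:87428744-87428993 for Bmp10 and chr9:75775115-75775364 for Bmp5, with matches to TGGGAA on either strand in capitals.
Bmp10: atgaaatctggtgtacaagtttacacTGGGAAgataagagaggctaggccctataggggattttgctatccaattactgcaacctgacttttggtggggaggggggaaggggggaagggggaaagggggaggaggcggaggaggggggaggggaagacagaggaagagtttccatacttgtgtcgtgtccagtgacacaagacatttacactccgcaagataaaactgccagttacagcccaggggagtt
Bmp5: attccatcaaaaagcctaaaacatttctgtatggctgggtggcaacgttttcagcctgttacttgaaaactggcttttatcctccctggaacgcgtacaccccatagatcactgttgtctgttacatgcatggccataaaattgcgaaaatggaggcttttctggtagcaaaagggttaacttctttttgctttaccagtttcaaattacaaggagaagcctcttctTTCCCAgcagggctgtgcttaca
The motif was found once in each. In Bmp10 it lies on the gene's strand, 224 to 219 bases before the start, and shares its last base with the first base of the GATA-factor motif AGATAA, at 219 to 214, which occurs again at 33 to 28. In Bmp5 it lies on the opposite strand, 23 to 18 bases before the start. TGGGAA on either strand was found in 21.6% of the 32851 windows of this length in the RefSeq table, and AGATAA in 9.99%. Of the 6 genes matched by symbol in that table (Bmp2 and Bmp7 were not), Bmpr1a and Bmpr2, which were not called, also held TGGGAA, and Bmp4 and Acvr1 did not. A check that the bases just after the start lie in a GENCODE transcript of the gene was met for Bmp10, Bmp4 and Bmp5. It was not met for Bmpr1a, Bmpr2 and Acvr1, so their windows are less certain. No match was found in either printed window to AAGTG (NKX2-5 core; 40.7% of windows), AGGTGTGA (T-box; 1.12%), CACGTG (E-box of HEY and HES factors; 6.02%) or GGCGCC (GC-rich SMAD site; 9.59%), all searched on both strands. A match is a description of the letters and not a measured binding site.

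Bmp5 (ENSMUSG00000032179) encodes a ligand closely related to Bmp7, and the pair are known to act redundantly in the early embryonic heart. It stood at 12.4, 10.4, 9.73 and 15.2 CPM in mutant replicates 1 to 4, and at 20.5, 20.4, 20 and 20.4 CPM in wild type. Every mutant library was below every wild-type library, and the mutants were the more scattered group, with an SD of 2.45 CPM where counting gives 1.2, against 0.219 where counting gives 1.64. The log2 difference was −0.79 ± 0.13 (SE; 95% interval −1.05 to −0.52; limma adjusted p = 0.0035), and the two-sided exact permutation gave p = 0.0286.

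Bmp7 (ENSMUSG00000008999) had the highest counts of the ligands, 963 to 1577 per library. Mutant replicates 1 to 4 gave 139, 133, 144 and 131 CPM and wild-type replicates 1 to 4 gave 157, 163, 152 and 162 CPM. The groups did not overlap, and the mutant mean was 86.4% of the wild-type mean. The log2 difference was −0.21 ± 0.05 (SE; 95% interval −0.32 to −0.1; limma adjusted p = 0.0436; exact two-sided permutation p = 0.0286). This call was close to the threshold: it was lost without mutant replicate 2 or 4 and without any of the 4 wild-type libraries, each left out in turn, with log2 differences of −0.24 to −0.19 and limma adjusted p-values of 0.0224 to 0.152 over the 8 such fits.

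Bmp2 (ENSMUSG00000027358) encodes a ligand known for its part in the atrioventricular canal and its cushions. It stood at 8.11, 10.6, 10.5 and 8.97 CPM in the mutant libraries and at 11.2, 15, 14.6 and 11.6 CPM in wild type, with 70 to 135 counts per library. The groups did not overlap, by a gap smaller than the counting error of 1 library. The log2 difference was −0.46 ± 0.13 (SE; 95% interval −0.74 to −0.17), which did not pass over all genes (limma adjusted p = 0.104); by two-sided exact permutation p was 0.0286.

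Bmp4 (ENSMUSG00000021835), a ligand of the outflow tract and second heart field, was the 1 ligand whose groups overlapped. It stood at 8.82, 7.38, 11.5 and 7.35 CPM in mutant replicates 1 to 4 and at 7.93, 7.99, 9.76 and 6.97 CPM in wild type. Its log2 difference was 0.09 ± 0.16 (SE; 95% interval −0.26 to 0.43; limma adjusted p = 0.858), and it turned to −0.05 without mutant replicate 3, the highest library. With 55 to 100 counts per library, the values do not exclude differences as large as the ends of that interval.

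Bmpr1a (ENSMUSG00000021796), the type I receptor also called ALK3, stood at 242, 219, 196 and 216 CPM in mutant replicates 1 to 4 and at 192, 195, 194 and 222 CPM in wild type. The groups overlapped, with a log2 difference of 0.12 ± 0.07 (SE; 95% interval −0.03 to 0.26; limma adjusted p = 0.448). Acvr1 (ENSMUSG00000026836), the type I receptor ALK2, had the narrowest interval of the receptors. Its libraries lay between 49.1 and 53.3 CPM in the mutants and between 47.3 and 50.3 CPM in wild type, and the log2 difference was 0.06 ± 0.06 (SE; 95% interval −0.06 to 0.19; limma adjusted p = 0.679).

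Bmpr2 (ENSMUSG00000067336), the type II receptor, stood at 40.1, 37.5, 27.4 and 34.3 CPM in mutant replicates 1 to 4 and at 25.1, 28.3, 26.9 and 32.8 CPM in wild type. Mutant replicate 3 lay within the wild-type range and the other 3 above it. The log2 difference was 0.29 ± 0.11 (SE; 95% interval 0.05 to 0.54) and was not called (limma adjusted p = 0.247; exact two-sided permutation p = 0.0857). Without mutant replicate 3 it was 0.4 and was called (limma adjusted p = 0.0376); over the 8 fits with 1 library left out the adjusted p ran from 0.0376 to 0.489. For Bmp4, Bmp5 and Bmpr1a the GENCODE M21 annotation has an exon of another gene on the opposite strand within the gene's own exons. No source used here gives the strand setting of the counting, so reads of such pairs cannot be told apart.

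Levels of different genes were compared per length, as CPM per kilobase of the longest coding transcript. In wild type Bmp7 was highest of the ligands at 43.2 ± 1.32 CPM per kb (SD, n = 4), and Bmp10 was next at 9.22 ± 0.519. Bmp5 followed at 5.32 ± 0.0572 CPM per kb, then Bmp4 at 3.96 ± 0.565 and Bmp2 at 3.69 ± 0.553; the last pair overlapped and the other neighbours did not. In the mutants Bmp7 remained highest at 37.3 ± 1.63 CPM per kb, while Bmp10 was lowest, at 1.88 ± 0.125 and with every library below every library of the other ligands. Bmp4, Bmp5 and Bmp2 stood between them at 4.25 ± 0.95, 3.13 ± 0.641 and 2.68 ± 0.336 CPM per kb, each overlapping its neighbour. Bmp10 was thus the ligand next to Bmp7 in wild type and the lowest of the 5 in the mutants.

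The summed level of the 5 ligands was 65.3 ± 1.62 CPM per kb in wild type and 49.2 ± 2.22 in the mutants (SD, n = 4), with ranges of 63.6 to 67.4 and 47.3 to 52.2. The share of Bmp10 in that sum was 14.1 ± 0.519% in wild type and 3.83 ± 0.321% in the mutants, and the share of Bmp7 was 66.1 ± 1.47% and 75.8 ± 0.992%. The shares of Bmp2 were 5.64 ± 0.771% and 5.45 ± 0.698%, of Bmp4 6.06 ± 0.913% and 8.58 ± 1.5%, and of Bmp5 8.14 ± 0.204% and 6.38 ± 1.47%. These sums and shares are descriptions, with no test, since the 5 ligands were chosen with their changes known. Among the receptors the wild-type order was Bmpr1a at 33.7 ± 2.39, Acvr1 at 14.9 ± 0.405 and Bmpr2 at 2.19 ± 0.254 CPM per kb. That order was the same in the mutants, at 36.6 ± 3.21, 15.6 ± 0.579 and 2.7 ± 0.427. With the mean length of its 4 coding transcripts in place of the longest, Bmpr1a stood at 86.4 CPM per kb in wild type.

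**Figure D3:**
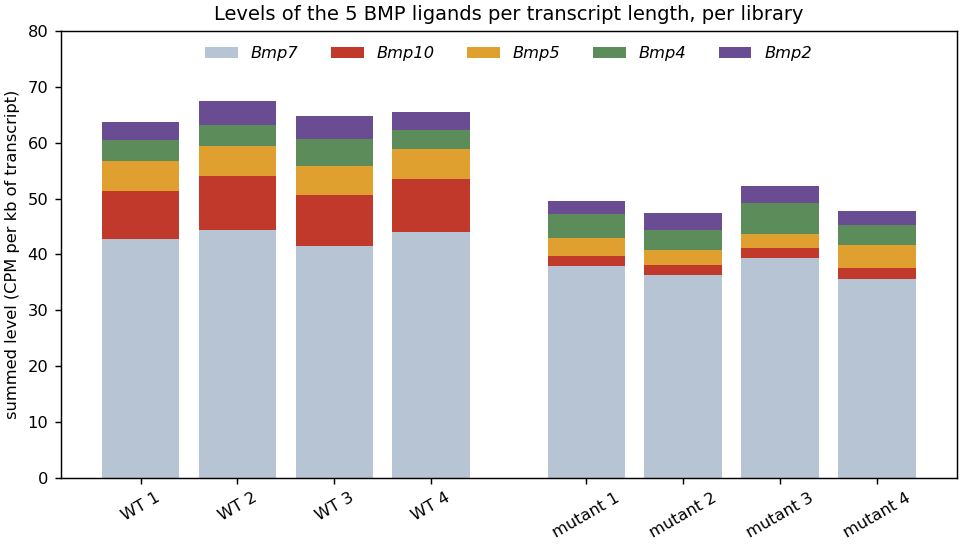
Levels of the 5 ligands in CPM per kb of the longest coding transcript (vertical axis, from 0), stacked for each wild-type (WT) and mutant library. Bmp7 makes up most of every column, and the red section, Bmp10, falls from 8.51 to 9.64 CPM per kb in wild type to 1.76 to 2.05 in the mutants.

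The change of Bmp10 was set beside those of the other genes as the log2 ratio of Bmp10 to each of the other 7 in each library, as a description with no test for the same reason. In all 7 pairs the ratio was lower in every mutant library than in every wild-type library. The shift was smallest against Bmp5, from 1.02 ± 0.08 in wild type to −0.48 ± 0.22 in the mutants (SD, n = 4), a difference of −1.5, and largest against Bmpr2, with a difference of −2.58. Against Bmp2, Bmp4 and Bmp7 the differences were −1.83, −2.37 and −2.07. The pairs share the Bmp10 values.

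The same ratio was taken to 3 other genes of the trabecular layer, which were chosen after their values were seen and so carry no test. Nppa, which encodes atrial natriuretic peptide, was at 1041 to 1123 CPM in wild type and 314 to 398 CPM in the mutants, and the log2 ratio of Bmp10 to Nppa differed by −0.69, mutant minus wild type. Relative to the connexin gene Gja5 the difference was −0.84, and relative to the coregulator gene Cited1 it was −1.3. Of the 8 trabecular genes listed, 4 were called lower (Nppa, Gja5, Cited1 and Sema3a), where 1.25% of all genes were, and the list median was −0.63. The other 4 were not called: Nppb stood at −0.41, Cpne5 at −0.37, Irx5 at −0.1 and Irx3 at 0.16.

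The genes most like Bmp10 were found by Pearson's r of log2 CPM over the 8 libraries, among 11108 other genes with a mean of at least 5 CPM. The nearest were Gja5 (r = 0.994), the semaphorin receptor gene Plxnc1 (0.994), the guidance ligand gene Slit2 (0.989), Angpt1 (0.989), which encodes a ligand of the endothelial receptor TIE2, and the potassium channel gene Kcnk3 (0.988). Their log2 differences ran from −1.77 (Angpt1) to −0.58 (Plxnc1), all smaller in size than that of Bmp10. For Bmp5 the nearest were Plekha7 (0.979), which encodes a protein of adherens junctions, the inositol trisphosphate receptor gene Itpr2 (0.968), Lbp (0.964), the transcription factor gene Ets2 (0.964) and the adhesion molecule gene Icam1 (0.962). In all, 134 genes had an r over 0.9 with Bmp10 and 65 with Bmp5. These r values describe 8 points that share 2 groups.

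Other genes of the BMP pathway were taken from 7 lists of 68 genes, of which 50 were tested and the other 18 were not analysed here. Of the 50, 6 rose and 1 fell by limma's test over all genes, and the median log2 difference was 0.01, against 0 over all genes. Among all genes tested 0.99% were called higher and 1.25% lower, and these shares also belong beside the counts of each list below. The 7 called genes were Fstl1, Fstl3, Smad9, Id2, Atoh8 and Tbx20, which rose, and Cdkn1c, which fell.

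Neither of the 2 other ligands tested was called. Bmp6 had the smaller p: it stood at 20.5, 21.2, 20.7 and 20.8 CPM in the mutants and at 17.3, 16.5, 17.2 and 14.4 CPM in wild type. Its groups did not overlap, with the mutants higher, and its log2 difference was 0.35 ± 0.09 (SE; limma adjusted p = 0.055). It was called higher with a filter at a mean of 5 CPM, quantile scaling, robust eBayes, array weights or the deposited scaling left in place.

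None of 9 other receptors and co-receptors was called, 6 lay below 0 and 3 above, and their median was −0.09. Bmpr1b had the lowest log2 difference, −0.63, with overlapping groups (limma adjusted p = 0.356). Acvr2a was higher without overlap, at 50.6 to 68.1 CPM in the mutants and 46.3 to 50 CPM in wild type. Its log2 difference was 0.22 (limma adjusted p = 0.212). Acvrl1, the ALK1 receptor through which BMP10 acts on endothelium, stood at 14.4 to 19.5 CPM in the mutants and 17.4 to 21.3 CPM in wild type, a log2 difference of −0.18 (95% interval −0.41 to 0.05; limma adjusted p = 0.464). Eng, its co-receptor, had the smallest p of this list. It stood at 195 to 212 CPM in the mutants and 218 to 242 CPM in wild type, with no overlap and a log2 difference of −0.18 (95% interval −0.29 to −0.08; limma adjusted p = 0.0792). Both are endothelial genes, and summed endothelial markers were lower in the same libraries, as given below; the part of that in these values was not tested.

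Among 11 extracellular antagonists and modulators 2 rose and none fell, with a median of 0.13. Fstl3, which encodes a follistatin-like protein that binds activins and some BMPs, stood at 22.5, 26.1, 29.6 and 24.7 CPM in the mutants and at 16.7, 18.4, 19.2 and 16.1 CPM in wild type, a log2 difference of 0.54 ± 0.1 (SE; limma adjusted p = 0.0103). Fstl1, a secreted follistatin-like glycoprotein gene, rose by 0.19 ± 0.05, from 914 to 974 CPM in wild type to 1040 to 1108 CPM in the mutants. The call of Fstl1 (limma adjusted p = 0.0437) was kept when mutant replicate 3 was left out and lost when any other library was. Of the 11 genes 8 lay above 0 and 3 below. Sost had the largest difference, 0.9, and was not called (limma adjusted p = 0.113). Its groups overlapped, at 3.09 to 7.18 CPM in the mutants and 1.71 to 3.22 CPM in wild type. None of 6 genes of ligand-processing proteases was called. Pcsk6, a proprotein convertase gene, had the smallest p of these, at −0.13 (limma adjusted p = 0.522), and the median was −0.08.

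Among 8 Smad and Smurf genes 1 rose and the median was 0.1. Smad9, which encodes a receptor-activated Smad of the BMP branch, stood at 16.1, 15.9, 15.6 and 15.2 CPM in the mutants and at 8.94, 8.21, 7.09 and 6.48 CPM in wild type. Every mutant library was thus above every wild-type library, and the difference in log2 level was 1.04 ± 0.12 (SE; limma adjusted p = 0.000212). The other receptor-activated Smad genes of this branch, Smad1 and Smad5, stood at −0.01 and 0.11.

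Of 8 genes known to respond to BMP signalling 2 rose and none fell, with a median of 0.15. Id2, which encodes an inhibitor of basic helix-loop-helix factors, stood at 104, 93.1, 109 and 104 CPM in the mutants and at 59.8, 59.3, 71.3 and 67.5 CPM in wild type, a log2 difference of 0.67 ± 0.07 (SE; limma adjusted p = 0.000128). Atoh8, a helix-loop-helix factor gene, stood at 0.54 ± 0.13 (SE; limma adjusted p = 0.0395), and its call was kept when wild-type replicate 3 was left out and lost when any other library was. The related genes Id1 and Id3 stood at −0.17 and −0.09, with overlapping groups. Msx2, a homeobox gene, had the largest difference of the list, 1.18 ± 0.32 (SE; limma adjusted p = 0.0777), at 2.12 to 4.61 CPM in the mutants and 0.999 to 2.05 CPM in wild type with no overlap, and it was called with robust eBayes. Of the 8 genes 4 lay above 0 and 4 below, among them Msx1 at −0.27 and Tbx2 at −0.19, not called. The direction of Id2 and Atoh8 was opposite to that of the 3 called ligands, as was that of Smad9. Id1, Id3, Msx1 and Tbx2 lay below 0, as those ligands did.

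Of 6 genes linked to Bmp10 in the ventricle wall, 1 rose and 1 fell. Cdkn1c, the gene of the CDK inhibitor p57, is known to rise in hearts without Bmp10. The hearts here were at E14.5 and Bmp10 was not absent, with a mutant mean at 20.4% of the wild-type mean. Cdkn1c stood at 201, 203, 244 and 213 CPM in the mutants and at 266, 261, 292 and 252 CPM in wild type. Its groups did not overlap, and the difference in log2 level was −0.32 ± 0.07 (SE; limma adjusted p = 0.0221); the call was lost without mutant replicate 2 or 4 or wild-type replicate 1, 2 or 3. Tbx20, a T-box factor gene, stood at 383 to 450 CPM in the mutants and 302 to 319 CPM in wild type, a log2 difference of 0.41 ± 0.05 (SE; limma adjusted p = 0.000574). The myocardial factor genes Nkx2-5 and Mef2c stood at −0.08 and 0.05.

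**Figure D4:**
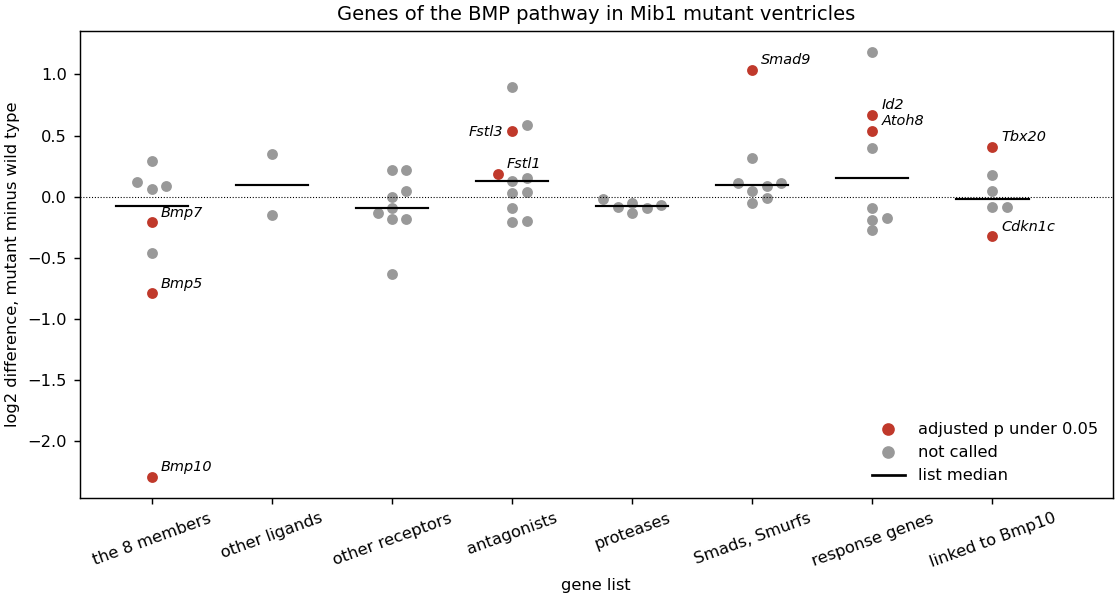
Log2 difference, mutant minus wild type (vertical axis), of each tested gene in the group of 8 and in 7 lists of the BMP pathway, with called genes in red and named, and each list's median as a black line. Bmp10 lies lowest at −2.29, Bmp5 and Bmp7 are the other called ligands, and 6 of the 7 called genes in the lists lie above 0.

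Markers of other cells were read in the same libraries, because each ligand may come from a part of the tissue. Atrial markers bear on Bmp10, which atria also make. Of 10 atrial genes 1 fell (Kcnj3) and 1 rose (Myl7), 8 lay below 0, and their median log2 difference was −0.25. Nr2f2 (−0.31) and Mybphl (−0.93) were lower without overlap but not called (limma adjusted p = 0.0617 and 0.145). Stard10 (−0.53) and Nr2f1 (−0.44) had overlapping groups and were not called (limma adjusted p = 0.113 and 0.28). The 2 genes above 0 were Myl7 and Dkk3, at 0.37 and 0.16. The summed level was 1528 to 1814 CPM in the mutants and 1530 to 1697 CPM in wild type, most of it from Myl4, at 972 to 1140 CPM over the 8 libraries, and Myl7. The atrial gene Sln was low in both groups, at 2.56 to 4.83 and 1.59 to 6.63 CPM. Endocardial markers fell in 4 of 8 genes (Npr3, Plvap, Vwf and Adgrg6), with a median of −0.25 and a sum of 476 to 498 CPM against 591 to 620 CPM. Of the 8 genes 6 lay below 0 and 2 above, Hapln1 at 0.07 and Nfatc1 at 0.05, both with overlapping groups. Endothelial markers fell in 3 of 10 (Egfl7, Ramp2 and Tek), with a sum of 1045 to 1093 against 1202 to 1240 CPM.

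Macrophage markers fell in 3 of 10 genes (C1qc, Lyz2 and Tyrobp), with a sum of 74.4 to 93.7 CPM against 111 to 132 CPM, and erythroid markers in 2 of 9 (Ank1 and Hba-a1), with sums of 1966 to 3228 and 3002 to 4090 CPM. Smooth muscle and pericyte markers summed to 1666 to 1795 CPM in the mutants and 1396 to 1575 CPM in wild type, with Acta2 and Cnn1 called higher and Abcc9 lower among 9. Most of that sum was Acta2, at 1015 to 1124 CPM in the mutants and 757 to 914 CPM in wild type. Of the 9 genes 5 lay above 0 and 4 below. Kcnj8 (−0.33) was lower without overlap but not called (limma adjusted p = 0.132). Myh11 was low in both groups, at 0.794 to 6.58 and 1.59 to 3.44 CPM. Of 10 genes of cushions and fibroblasts Fbln1 fell, none of 10 epicardial genes was called, and the sums of both lists overlapped between the groups. No marker tested stood at 0 in any library. The endocardial, endothelial and macrophage sums moved down with Bmp10, Bmp5 and Bmp7. Most atrial genes lay below 0, while the atrial sum, mostly Myl4 and Myl7, overlapped. The part of these cells in the ligand values was not tested.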

How the data were processed

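The submitters' processing notes name cutadapt 1.2.1, RSEM, Bowtie2, limma and edgeR, with build mm9; their settings and the choice of genes are not given there. The deposited values are a score: each column sums to 1000000 yet holds values below 0. Each equalled log2 CPM with a prior of 0.5 counts times a constant per library, found as the gap between the lowest values over log2(3) and then fitted. Dividing by it gave log2 CPM with the normalization of the authors (factors 0.9857 to 1.0129), and 100% of the counts behind it were whole within 0.001. CPM levels are these counts over the normalized library size.

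Symbols came from GENCODE M21 (13428 of 13869 genes matched). The 13740 genes whose log2 CPM averaged 0 or more entered limma 3.58.1 in R 4.3.3 (lmFit, eBayes with a trend, group as the only term, all 8 libraries), two-sided; differences are mutant minus wild type. The deposited unit is a score, so limma on log2 values was the test; voom weights on the recovered counts were an alternative, and other count models were not run. Single values were compared by exact permutation over 70 assignments. The fit was tested on simulated data, with the same spread for all genes and not the spread of these libraries. It recovered 38% of 1.25-fold, 82% of 1.5-fold, 92% of 2-fold and 100% of 4-fold changes, with 10 false calls among 13755 genes. Small changes in genes that were not called could thus be missed. Alternatives covered filter, pseudocount, scaling, test, replicate number and each library left out.

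The members, lists and tests were chosen with earlier results of these data known. Genes named are the 8 members, Mib1, called genes of each pathway list (or its smallest p), up to 4 called genes of a marker list, and the 5 genes most like Bmp10 and Bmp5; others, the motifs and the ratios to trabecular genes were chosen after values were seen.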

Additional observations from a re-analysis of the deposited data

Results flagged for a closer look

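In 32 groups of 4 libraries checked by the ratio of Dixon, 2 held a library apart from the rest, where chance gives about 1 in 20. Bmp5 in wild-type replicate 3 stood at 20 CPM, from 127 counts, against 20.4 to 20.5 CPM in the others, a gap far below the counting SD of 1.64 CPM. Bmpr1a in wild-type replicate 4 stood at 222 CPM, from 1815 counts, against 192 to 195 CPM in the others; its counting SD was 5.16 CPM, so this library was higher by more than counting error, and it lies within the mutant range of 196 to 242 CPM.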

How the results depend on the processing

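Bmp10 and Bmp5 kept their fall and their call under all 21 alternatives run, with log2 differences of −2.33 to −1.79 and −0.91 to −0.59; the sizes nearest 0 came from a pseudocount of 5 CPM. Bmp7 kept its direction, but the call was lost without a trend in eBayes (−0.21, limma adjusted p = 0.14), with the deposited scaling left in place (−0.2, adjusted p = 0.0768) and with the replicate number as a block (−0.21, adjusted p = 0.115); with 1 library left out it lay between −0.24 and −0.19. Libraries sharing a number correlated at −0.038 to 0.1 after removal of group means, and 0 mutant and 1 wild-type library correlated most with its own number; the numbers were therefore not treated as pairs; the block lowered the calls over all genes from 308 to 240, and Fstl1 also lost its call (adjusted p = 0.111). With 1 library left out Bmp4 ran from −0.05 (without mutant replicate 3, the only change of direction) to 0.18, and Bmpr2 from 0.22 to 0.4, called at 0.4 without mutant replicate 3. The number of the 8 genes called lower was 2 or 3 throughout, and called higher 0, or 1 (Bmpr2) without that library. Pathway genes called higher numbered 4 to 8, and called lower 1, or 0 without a trend, 2 with array weights (Cdkn1c and Eng), and 0 to 1 with 1 library left out. Calls over all genes ran from 145 to 490, with 179 without a trend and 490 with array weights; the causes were not tested. The mean length of coding transcripts moved the levels per kb of Bmpr1a and Acvr1 (86.4 and 20.1 in wild type, 93.9 and 21 in the mutants) and left the share of Bmp10 at 14% and 3.79%. Counts per library were 70 to 135 for Bmp2 and 55 to 100 for Bmp4; the SD of Bmp4 in the mutants was 1.96 CPM where counting gives 1.03.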
